A study of Mus musculus with 6 samples.

Results

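The aminoacyl-tRNA synthetases, the enzymes that load each tRNA with its amino acid, were examined in mouse synovial fibroblasts exposed to compound 33. The members were the rows of the count table whose symbol is 1 of 36 listed synthetase genes, 20 for cytosolic enzymes and 16, with symbols ending in 2, for mitochondrial ones. All 36 were among the 21033 genes listed. The list used no measured value of this experiment but was chosen with earlier results of these data known. A low-count filter left 32 of them for testing, all 20 cytosolic and 12 mitochondrial, among 10124 genes. Aars2, Nars2, Pars2 and Sars2 had too few reads to be tested.

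All 6 samples were primary synovial fibroblasts of the hTNFtg genotype, taken from the ankle joint and kept in culture for 3 passages. Synovial fibroblasts are the connective tissue cells of the joint lining, and hTNFtg mice carry a human TNF transgene, which controls and treated cells share. In 1 group of 3 the cells received DMSO, the vehicle, and in the other group of 3 they received 10 µM compound 33, for 48 h in both. The labels name no strain, age, sex or number of animals and do not say whether replicates are separate cultures. The p-values therefore set the group difference only against the scatter of these libraries, part of which may be technical. The series title ties the compound to Hyou1, an endoplasmic reticulum chaperone.

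Each synthetase recognises 1 amino acid and the tRNAs that belong to it, and joins them at the cost of ATP. Cytosolic enzymes serve the ribosomes of the cytoplasm, and a separate nuclear-encoded set serves translation inside mitochondria. Synthetases form classes I and II, which have unrelated catalytic domains, and Eprs joins an enzyme of each class in 1 protein. Several cytosolic enzymes sit in a multi-synthetase complex held together by Aimp1, Aimp2 and Eef1e1. When tRNAs stay uncharged, the kinase GCN2 phosphorylates eIF2, and the transcription factor ATF4 then induces amino acid transporters, biosynthetic enzymes and many cytosolic synthetases. Wars, the tryptophan enzyme, is in addition a known target of interferon gamma.

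Libraries held 1594052 to 2897207 reads. Each read came from near the 3′ end of a transcript, so levels are given in CPM, which are reads per 1000000 of the normalised library size, with no division by gene length. All 10 markers of synovial fibroblasts were expressed, with a summed level of 14278 to 15511 CPM with DMSO and 12148 to 14224 CPM with compound 33. All 7 markers of T and B cells had 0 reads in every library. Of 10 macrophage markers 2 passed the low-count filter, Lyz2 was the highest, and the list summed to 63.6 to 140 CPM with DMSO and 53.9 to 108 CPM with compound 33. Adipocyte markers, mostly Fabp4, summed to 52.0 to 150 and 104 to 166 CPM, and chondrocyte markers, mostly Sox9 with Acan at 0, to 62.6 to 151 and 99.6 to 120 CPM. Both lists and the osteoblast markers were lowest in DMSO replicate 1. Endothelial markers, with Pecam1 at 0, summed to 2.44 to 3.71 and 5.15 to 9.54 CPM, and none of them passed the low-count filter. The highest of them was Tek, with 4, 1 and 3 reads with DMSO and 7, 17 and 4 with compound 33. The part of all these markers in the results was not tested. In such bulk RNA, fewer cells of a type and less RNA per cell cannot be told apart.

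The study was designed to find genes deregulated by compound 33, and the question here is whether charging enzymes are among them. Among the synthetases, Wars and Cars, the tryptophan and cysteine enzymes of the cytosol, stood highest above their DMSO level with the smallest p-values of the family, but neither passed. Wars had 33.9, 48.3 and 61.3 CPM with DMSO and 97.2, 80.4 and 96.8 CPM with compound 33. All treated libraries lay above all DMSO libraries, and DMSO replicate 1 was the lowest. The means were 47.8 ± 13.7 and 91.5 ± 9.56 CPM (SD, n = 3 per group), a log2 fold change of 0.92 (SE 0.25, 95% interval 0.39 to 1.46, adjusted p = 0.401 in edgeR's quasi-likelihood test). Cars had 36.6, 37.4 and 41.1 CPM with DMSO and 55.6, 65.5 and 62.3 CPM with compound 33, again without overlap and with little spread in either group. Its log2 fold change was 0.67 (SE 0.22, 95% interval 0.21 to 1.14, adjusted p = 0.558 in edgeR). In the authors' deposited table the log2 fold changes are 0.93 (adjusted p = 0.197) for Wars and 0.67 (adjusted p = 0.639) for Cars.

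No synthetase passed an adjusted p of 0.05 in edgeR, where 0.0296% of all tested genes did, and none passed in DESeq2, where 0.179% did, or in limma-voom, where 0.0198% did. Before adjustment, 2 of 32 members lay under 0.05, where 6.87% of all genes did in either direction. Both, Wars and Cars, were higher with compound 33, a direction that held 3.64% of all genes. On the lower side 0 of 32 did, against 3.23% of all genes. The groups did not overlap for 4 tested members that were higher, Wars, Cars, Iars2 and Fars2, where 6.64% of all genes were separated in that direction. No tested member was separated downward, where 6.73% of all genes were. On mm10, Wars lies on chromosome 12 from 108860030 to 108894174 on the minus strand, and its exons overlap no other annotated gene. Cars lies on chromosome 7 from 143557230 to 143600090 on the minus strand, and a processed pseudogene on the other strand overlaps 211 bases of its exons, 39312 bases from its 3′ end.

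**Figure D1:**
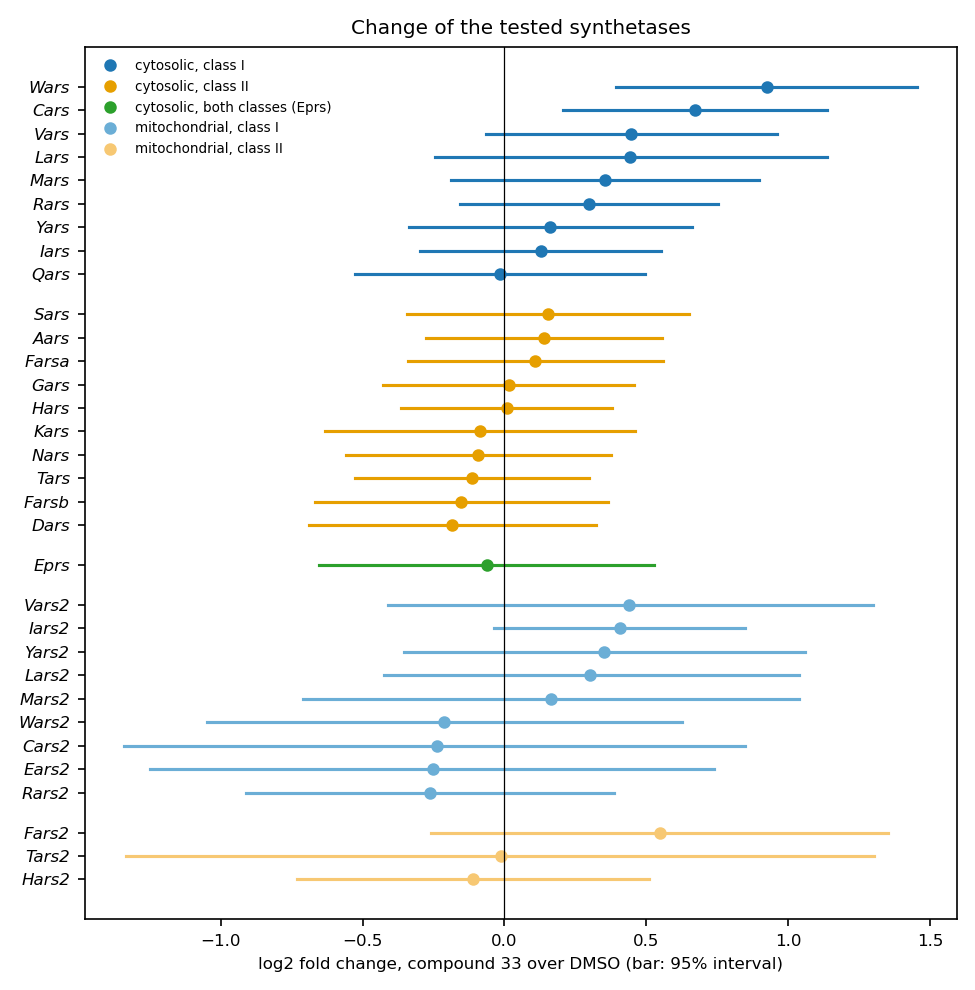
Log2 fold change of compound 33 over DMSO for the 32 tested synthetases (points) with 95% intervals (bars), grouped by compartment and enzyme class. Only the intervals of Wars and Cars lie wholly above 0, and the cytosolic class I enzymes run from -0.02 to 0.92 while those of class II run from -0.18 to 0.15.

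The cytosolic enzymes as a group had a median log2 fold change of 0.12 over 20 members, 13 positive and 7 negative, beside a median of -0.01 over all tested genes, of which 48.9% were positive. The cytosolic median was 0.07 without DMSO replicate 3 or without compound 33 replicate 3, and 0.18 without DMSO replicate 2. Their summed level was 2972, 2768 and 2777 CPM in the DMSO libraries and 2892, 3067 and 3063 CPM in the compound 33 libraries. The sums of the groups overlapped, since DMSO replicate 1 lay above compound 33 replicate 1. The mean log2 CPM of the 20 genes, which weights rare and abundant ones alike, was 6.69 to 6.73 with DMSO and 6.84 to 6.93 with compound 33, without overlap. In reads, the cytosolic enzymes took 0.275% to 0.293% of each DMSO library and 0.287% to 0.310% of each treated one. With Wars and Cars set aside, a choice made after their values were seen, the other 18 had a median of 0.06.

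A split by enzyme class was not among the planned comparisons, which set cytosolic beside mitochondrial members. By class, the estimates of the cytosolic members were distributed as follows. In class I, 8 of 9 estimates were positive and the median log2 fold change was 0.35. Of the 10 class II members, 5 were positive and 5 negative, with a median of -0.04. The mean log2 CPM of the class I members was 5.97, 6.07 and 6.14 with DMSO and 6.38, 6.48 and 6.46 with compound 33. Every treated library thus lay above every DMSO library for this mean. For class II it was 7.38, 7.28 and 7.28 with DMSO and 7.26, 7.33 and 7.33 with compound 33, and the groups overlapped.

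Taken within each library, class I minus class II was -1.41, -1.21 and -1.14 log2 units with DMSO and -0.88, -0.84 and -0.87 with compound 33. The treated libraries lay close together and above all DMSO libraries, and the means of this difference were -1.26 ± 0.14 and -0.86 ± 0.02 (SD, n = 3 per group). Without Wars and Cars the difference was -1.08 ± 0.10 with DMSO and -0.80 ± 0.04 with compound 33. These are descriptions with no test, since the members are not replicates and 2 of them carry part of the shift. Without DMSO replicate 1 the class I median was 0.21 and the class II median was 0.08, so the gap between the classes was narrower without that library. Among the tested mitochondrial members, class I minus class II was -0.04 ± 0.05 with DMSO and -0.05 ± 0.21 with compound 33. Only 3 mitochondrial class II members were tested.

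**Figure D2:**
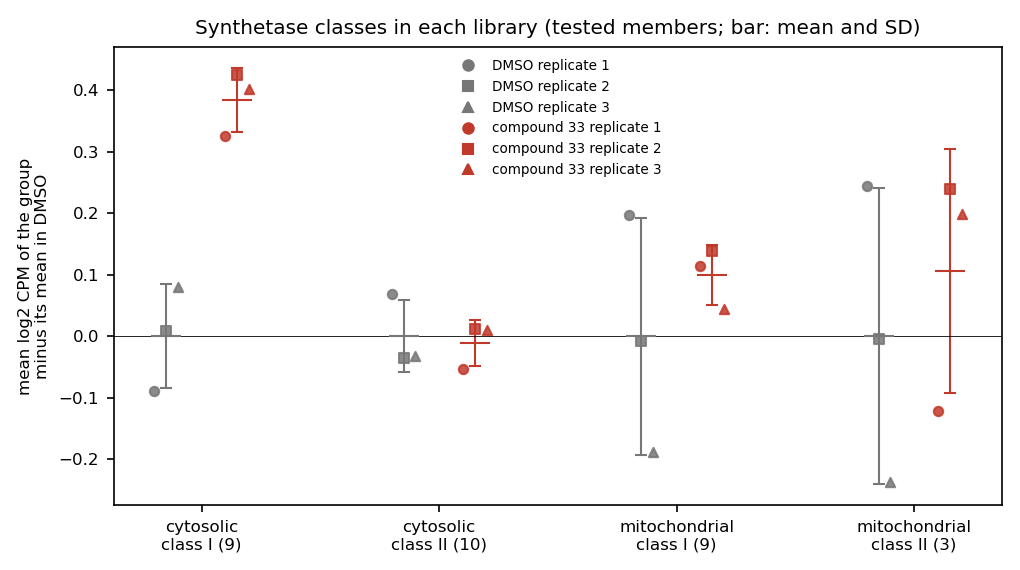
Mean log2 CPM of the tested synthetases of each class and compartment in each library, less the mean of that group in DMSO (symbols: replicates; bars: mean and SD of 3 libraries). The treated libraries lie above all DMSO libraries only for the 9 cytosolic class I enzymes, at 0.32 to 0.42, and the other groups overlap.

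Among the remaining class I enzymes of the cytosol every 95% interval included 0. Vars, the valine enzyme, had 46.7, 36.5 and 32.4 CPM with DMSO and 45.9, 58.0 and 52.5 CPM with compound 33. Its log2 fold change was 0.45 (95% interval -0.06 to 0.96), and DMSO replicate 1 overlapped the treated libraries. Lars, the leucine enzyme, had 46.7, 127 and 114 CPM with DMSO and 160, 112 and 122 CPM with compound 33. Its value of 0.44 came to 0.12 without DMSO replicate 1, the library in which it was lowest. Rars, the arginine enzyme, stood at 157 ± 22.3 and 193 ± 27.3 CPM (log2 fold change 0.30, 95% interval -0.16 to 0.75).

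Mars, the methionine enzyme, had 70.0, 49.2 and 59.2 CPM with DMSO and 56.2, 72.1 and 98.8 CPM with compound 33. Its log2 fold change of 0.35 was 0.12 without compound 33 replicate 3. Its last 68 bases (chromosome 10, 127296221 to 127296288) overlap the end of Ddit3, which lies on the other strand and encodes the stress factor CHOP. Ddit3 had 103, 67.7 and 112 CPM with DMSO and 136, 136 and 191 CPM with compound 33 (log2 fold change 0.71, adjusted p = 0.599 in edgeR). Both genes were highest in compound 33 replicate 3, and without a stated strand setting reads from the shared end cannot be told apart. Yars (0.16), Iars (0.13) and Qars (-0.02), the tyrosine, isoleucine and glutamine enzymes, completed class I with estimates under 0.2 log2 units.

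Class II enzymes of the cytosol were on average more abundant than those of class I. Farsa, the catalytic subunit of the phenylalanine enzyme, was the most abundant synthetase, with 522, 405 and 420 CPM in the DMSO libraries and 434, 478 and 540 CPM in the compound 33 libraries. The groups overlapped through DMSO replicate 1, with a log2 fold change of 0.11 (95% interval -0.34 to 0.56). Its partner subunit Farsb stood at 198 ± 56.5 and 177 ± 30.6 CPM, with a log2 fold change of -0.15. Gars, the glycine enzyme of both compartments, had 349, 272 and 288 CPM with DMSO and 278, 317 and 324 CPM with compound 33. Its log2 fold change was 0.01 (95% interval -0.43 to 0.46), which changed sign when single libraries were left out.

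The other class II estimates lay between -0.18 for Dars, the aspartate enzyme, and 0.15 for Sars, the serine enzyme. Nars, Tars, Aars, Kars and Hars lay between them. For Aars, 1326 exon bases reaching its 3′ end overlap Exosc6 on the same strand, which had 0 reads in every library. In abundance Gars, Nars and Tars, at 305, 299 and 285 CPM over all libraries, did not differ from each other beyond their spread. At the other end of the cytosolic range lay Yars, with 41.9, 42.0 and 40.4 CPM with DMSO and 37.3, 47.7 and 53.5 CPM with compound 33, and Dars, with 54.6, 39.2 and 50.8 CPM with DMSO and 36.1, 43.5 and 47.4 CPM with compound 33. The 95% interval of 17 of the 20 cytosolic members lay within a 2-fold change in either direction, and that of 8 within 1.5-fold.

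**Figure D3:**
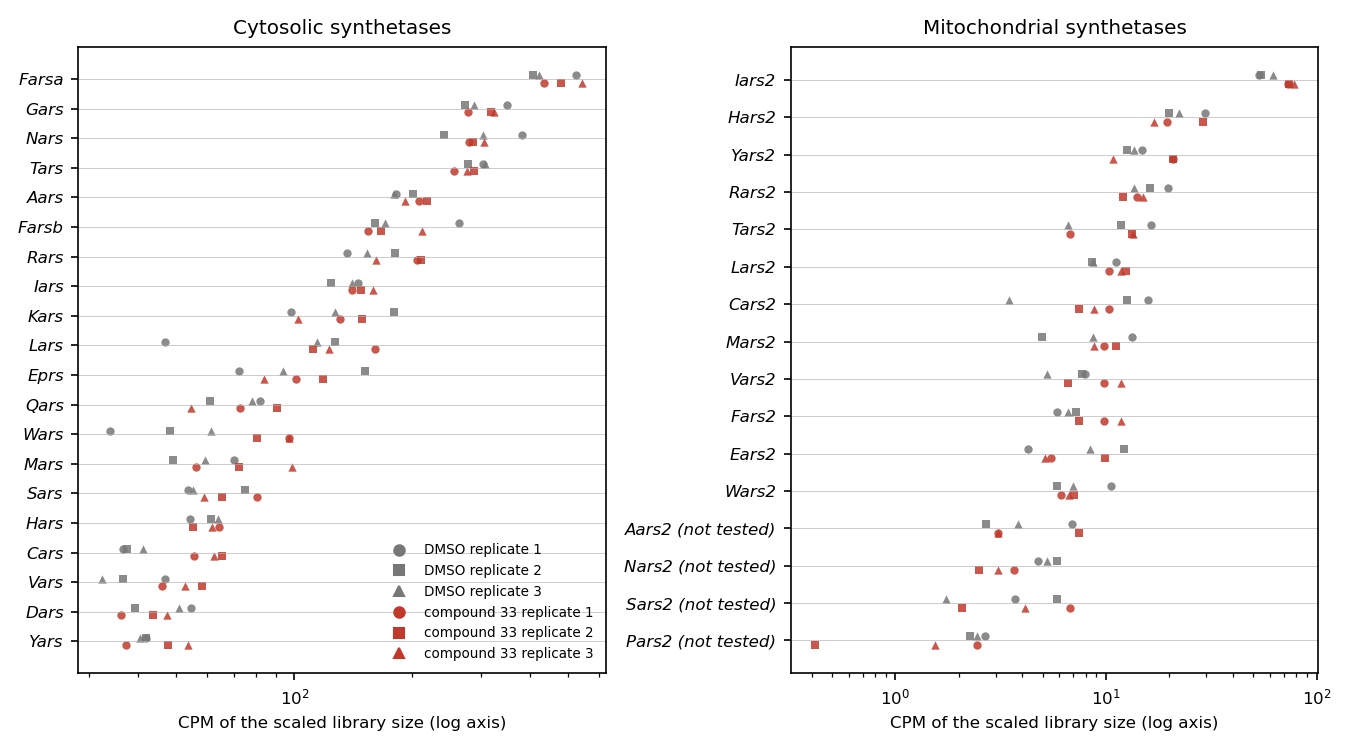
CPM of all 36 synthetases in each library on a log axis, ordered by mean level, with DMSO in grey and compound 33 in red (symbols: replicates). Cytosolic genes run from Yars at a mean of 43.8 CPM to Farsa at 467 CPM, and of the mitochondrial genes only Iars2, at 66.0 CPM, lies in that range.

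Mitochondrial synthetases had lower levels and wider errors. Over the 12 tested members the median log2 fold change was 0.08, with 6 positive and 6 negative, and the median standard error was 0.38, against 0.23 for the cytosolic members. The median coefficient of variation between DMSO libraries was 21.5% for mitochondrial and 15.8% for cytosolic members. Only 3 of the 12 had a 95% interval within a 2-fold change in either direction, and the intervals of the rest reached beyond it. Their summed level, untested genes included, was 221, 191 and 179 CPM with DMSO and 212, 224 and 211 CPM with compound 33, and the groups overlapped. The group median came to 0.25 without DMSO replicate 1 and to -0.09 without DMSO replicate 3, and it was -0.03 without compound 33 replicate 2, so single libraries set its sign.

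Iars2, the isoleucine enzyme of mitochondria, was the most abundant of them and the only one above 50 CPM. It had 53.6, 54.6 and 62.0 CPM with DMSO and 73.4, 74.2 and 78.2 CPM with compound 33, so all treated libraries were higher. Its log2 fold change was 0.41 (SE 0.20, 95% interval -0.04 to 0.85, adjusted p = 0.749 in edgeR). Iars2 lies on chromosome 1 from 185284726 to 185329396 on the minus strand, and 2034 bases of its exons, reaching its 3′ end, overlap Rab3gap2 on the other strand. Rab3gap2 had 10.6 to 26.6 CPM with DMSO and 12.4 to 14.1 CPM with compound 33 (log2 fold change -0.46).

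Fars2, the phenylalanine enzyme of mitochondria, had 5.83, 7.22 and 6.61 CPM with DMSO and 9.78, 7.46 and 11.8 CPM with compound 33. The gap between the groups was narrow, at 16 reads in DMSO replicate 2 against 18 in compound 33 replicate 2, and the log2 fold change was 0.55 (95% interval -0.26 to 1.35, adjusted p = 0.849 in edgeR). Its last 501 bases overlap Nrn1 on the other strand, which stood at 19.6 to 59.5 CPM with DMSO and 9.78 to 26.5 CPM with compound 33 (log2 fold change -1.53, adjusted p = 0.501 in edgeR). Hars2, the next most abundant mitochondrial member, had 29.7, 19.8 and 22.3 CPM with DMSO and 19.6, 29.0 and 17.0 CPM with compound 33. Its exons and those of Hars, the cytosolic histidine enzyme on the other strand, share 195 bases away from both 3′ ends, and their log2 fold changes were -0.11 and 0.01.

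**Figure D4:**
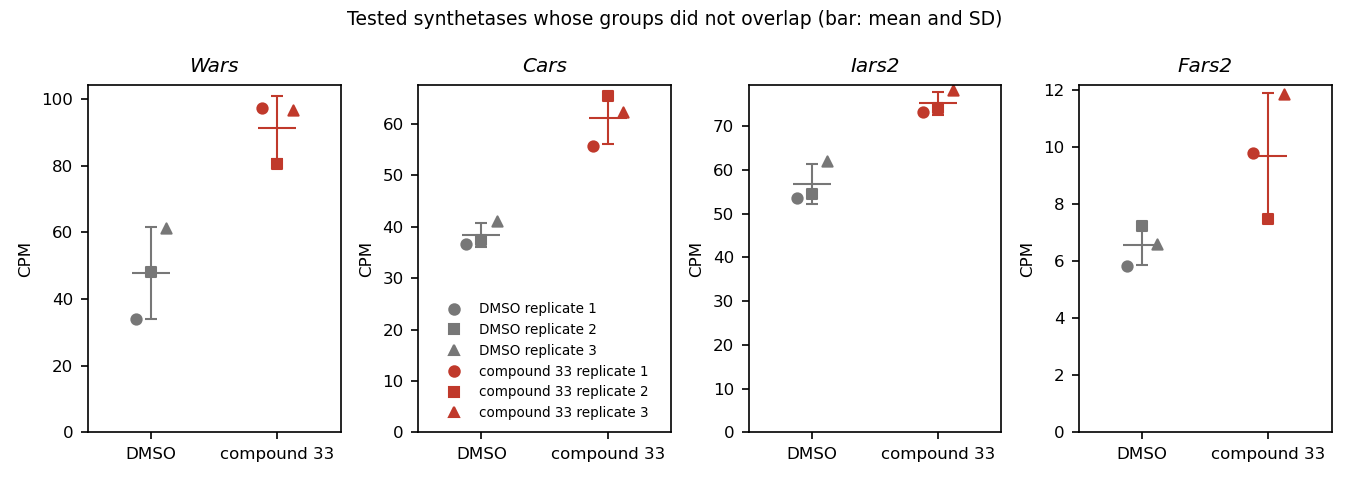
CPM of the 4 tested synthetases whose DMSO and compound 33 libraries did not overlap (symbols: replicates; bars: mean and SD of 3 libraries; axes start at 0). The means are 47.8 and 91.5 CPM for Wars and 38.4 and 61.1 CPM for Cars, and none of the 4 genes passed the test.

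The lowest tested members rested on 8 to 27 reads per library. Wars2, the mitochondrial tryptophan enzyme, had 10.6, 5.86 and 6.96 CPM with DMSO and 6.11, 7.05 and 6.69 CPM with compound 33. Ears2, which charges mitochondrial tRNA with glutamate, had 4.24, 12.2 and 8.36 CPM with DMSO and 5.50, 9.95 and 5.15 CPM with compound 33. Both sets of groups overlapped, with log2 fold changes of -0.21 and -0.25. Of the others, Vars2 (0.44), Yars2 (0.35), Lars2 (0.30) and Mars2 (0.16) were positive, and Rars2 (-0.26), Cars2 (-0.24) and Tars2 (-0.01) negative.

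Among the untested members, Nars2, the asparagine enzyme, had 9, 13 and 15 reads with DMSO and 6 in each treated library. In CPM this was 4.77, 5.86 and 5.22 against 3.67, 2.49 and 3.09, so its treated libraries were all lower, at counts where no test was made. Pars2, the proline enzyme, had 5, 5 and 7 reads with DMSO and 4, 1 and 3 with compound 33. Aars2 and Sars2 had 5 to 18 and 5 to 13 reads, with overlapping groups.

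Cytosolic and mitochondrial enzymes for the same amino acid form 17 pairs here, counting Farsa and Farsb each against Fars2 and Eprs against both Ears2 and Pars2. The cytosolic gene had the higher CPM in every library for all 17, by 1.79-fold at the least, in the pair of Yars and Yars2. The ratio was lowest on average for the isoleucine pair, at 2.41 ± 0.258 with DMSO and 1.98 ± 0.0638 with compound 33, where the treated libraries were all lower. For the tryptophan pair the ratio of Wars to Wars2 was 6.74 ± 3.08 with DMSO and 13.9 ± 2.29 with compound 33, and the treated libraries were all higher. The groups overlapped for the other 15 pairs.

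Libraries of the DMSO group differed among themselves. Of the 32 tested members, DMSO replicate 1 held the highest value of all libraries for 10 and the lowest for 11. Lars, Eprs, Kars and Rars were lowest there, while Farsb, Nars, Gars and Dars were highest there. Eprs, the bifunctional glutamate and proline enzyme, had 72.1, 151 and 93.3 CPM with DMSO and 101, 118 and 83.9 CPM with compound 33. The lysine enzyme Kars followed the same order, with 98.1, 180 and 127 CPM in the DMSO libraries. The log2 fold change of Eprs came to 0.29 and that of Kars to 0.18 without DMSO replicate 2.

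The 8 members of the multi-synthetase complex had a median log2 fold change of 0.06, with 4 positive and 4 negative, and the 12 cytosolic enzymes outside it had 0.12, with 9 positive. Of the scaffold proteins, Aimp1 stood at 57.7 ± 5.09 and 65.9 ± 16.2 CPM and Aimp2 at 67.4 ± 8.96 and 78.8 ± 13.9 CPM. Eef1e1 had 16.4, 26.6 and 19.1 CPM with DMSO and 12.2, 12.02 and 14.9 CPM with compound 33. Its treated libraries were all lower, with a log2 fold change of -0.67 (SE 0.30) that did not pass (adjusted p = 0.720 in edgeR).

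Other steps around tRNA charging gave no gene under an unadjusted 0.05. The 21 tested genes of tRNA maturation and editing had a median log2 fold change of 0.10, and their most abundant members were Tsen34 (-0.31), a subunit of the tRNA splicing endonuclease, and Nsun2 (-0.12), a tRNA methyltransferase. The 7 genes that deliver charged tRNA to ribosomes had a median of 0.17, with Eef1a1 at 0.26 and Eef1b2 at 0.17. A further 10 tested genes of mitochondrial tRNA processing and charging had a median of 0.16, among them Hsd17b10 (-0.00) and Gtpbp3 (0.45). The 15 tested genes of uncharged tRNA sensing and eIF2 had a median of 0.07, with Eif2s2 at -0.26 and Eif2b2 at 0.01. They include eIF2 kinases other than GCN2, subunits of eIF2 and its exchange factor, and subunits of eIF2 phosphatases.

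In the ATF4 program without its synthetases, estimates were positive for 23 of 30 tested genes, with 0.23 as the median. Under an unadjusted 0.05 lay 6 higher and 0 lower, against 3.64% and 3.23% of all genes, with 0 passing after adjustment in edgeR, DESeq2 or limma-voom. The groups were separated upward for 8 and downward for 1, Pycr1 (-0.36), against 6.64% and 6.73% of all genes. Among the 6 was Slc1a5, a glutamine transporter, with 28.6, 36.5 and 34.8 CPM with DMSO and 60.5, 61.8 and 53.0 CPM with compound 33 (log2 fold change 0.81, adjusted p = 0.458 in edgeR). The cystine transporter Slc7a11 had a log2 fold change of 1.11 and the secreted glycoprotein Stc2 one of 1.03, with adjusted p-values of 0.555 and 0.708 in edgeR. Slc7a11 came to 1.74 without DMSO replicate 3, and Stc2 to 0.66 without that library and 1.72 without DMSO replicate 1. The mean log2 CPM of the program was 6.15, 6.13 and 6.29 with DMSO and 6.44, 6.47 and 6.48 with compound 33, so all treated libraries were higher. Within the synthetases, the 12 cytosolic genes listed from background knowledge as ATF4 targets, Wars and Cars included, had a median of 0.15, with 9 positive. The 8 cytosolic genes off that list had a median of -0.00, with 4 positive. That list, like the other gene lists, was chosen with earlier results of these data known, and the difference was not tested.

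Sequences at the gene starts were searched for the composite element that ATF4 binds, TGATGNAA on either strand. RefSeq promoter windows on GRCm38.p6, from 250 bases before to 50 after the start, were found for 27 members, 13 of them cytosolic and 14 mitochondrial. Cars, Hars, Lars, Nars, Rars, Vars, Wars, Hars2 and Pars2 had no entry. The letters occurred in 5 of the 13 cytosolic genes and 0 of the 14 mitochondrial ones, and in 4.51% of all genes with a window. For each of the 5 genes 1 match is printed, 5′ to 3′ on the strand that carries it, with the 8 matching letters in capitals.
Aars, chr8:111033841-111033868, opposite strand: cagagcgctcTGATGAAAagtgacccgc
Gars, chr6:55037961-55037988, opposite strand: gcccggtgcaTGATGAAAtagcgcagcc
Iars, chr13:49682127-49682154, opposite strand: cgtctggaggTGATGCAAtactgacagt
Tars, chr15:11399656-11399683, opposite strand: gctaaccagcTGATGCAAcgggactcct
Yars, chr4:129189896-129189923, gene strand: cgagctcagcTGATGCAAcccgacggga

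Among the printed matches, the first matching base was at -30 in Gars and -15 in Tars. In Iars, Yars and Aars the first matching base, read along the gene, was base 8, 4 and 10 after the start. The 5 genes that carry the letters had log2 fold changes of 0.14 (Aars), 0.01 (Gars), 0.13 (Iars), -0.11 (Tars) and 0.16 (Yars), and their groups overlapped. In the ATF4 program itself 8 of 28 genes with a window carried the letters. Their log2 fold changes were 1.11 (Slc7a11), 0.40 (Nupr1), 0.29 (Chac1), 0.21 (Slc1a4), 0.17 (Asns), 0.14 (Trib3) and -0.36 (Pycr1). Atf3 was also among them but had too few reads to be tested. A match is a description of the letters and not of binding.

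Since Wars is also an interferon target, interferon-induced genes are set beside it. Of 26 tested, 25 had a positive estimate, against 48.9% of all genes, and 9 were separated upward, against 6.64%. Under an unadjusted 0.05 lay 12, all higher, against 3.64% of all genes, and 0 passed after adjustment in edgeR or limma-voom. The antiviral genes Rsad2 and Ifit3 had log2 fold changes of 3.31 and 1.93 and passed in DESeq2 (adjusted p = 0.00696 and 0.000807), with the same adjusted p in the authors' deposited table. Rsad2 rested on 3, 1 and 4 reads with DMSO and 32, 17 and 19 with compound 33. Ifit3 had 48.3, 37.9 and 38.3 CPM with DMSO and 213, 58.5 and 203 CPM with compound 33. The immunoproteasome subunits Psmb9 and Psmb8 stood at 1.61 and 0.90. The list's mean log2 CPM was 4.77, 4.77 and 4.66 with DMSO and 5.95, 5.003 and 5.50 with compound 33. Compound 33 replicate 2 was the lowest treated library both for the mean of this list and for Wars, while Cars was highest there. Single genes of the list differed in this, and Ifit3 was lowest in that library. Irf1, with 306, 336 and 198 CPM with compound 33, and Psmb9, with 19.0, 20.3 and 18.5 CPM, were highest there. Without compound 33 replicate 1, in which the list was highest, the log2 fold change of Wars was 0.88. Among all single-library omissions, the Wars estimate was smallest at 0.73, when DMSO replicate 1 was dropped. It was largest at 1.15, when DMSO replicate 3 was dropped. The part of either program in the levels of Wars and Cars was not tested. The interferon response element, searched on both strands, occurred in the window of 14 of 25 interferon-induced genes, in 3.99% of all genes and, among the 27 synthetases with a window, in Qars, while Wars and Cars were not searched. The STAT site TTCNNNGAA occurred in Aars, Kars and Nars2 and in 9.55% of all genes.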

How the data were processed

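RNA of 6 samples was made into 3′ mRNA libraries (QuantSeq for Ion Torrent) from samples with an RNA integrity number above 7, per the labels' protocols. Per the submitters' processing notes, the tools were HISAT2 2.2.1, featureCounts 2.0.3, DESeq2 and FastQC 0.11.9, on the mm10 build, and no source used here states the strand setting. The raw read counts per gene were deposited by the authors without normalization. Their table of the comparison, per its header a DESeq2 output, was deposited with log2 fold changes, p-values, a mean normalised signal and a test score per gene, of which the last 2 were not used. Columns were matched to samples by treatment and replicate number.

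From the counts, genes were kept by edgeR's filterByExpr with a minimum count of 10, which retained over 99.4% of reads in each library, scaled by TMM and tested with edgeR 4.0.16 (robust quasi-likelihood, R 4.3.3), with Benjamini-Hochberg adjustment over 10124 genes. Of the listed genes, 6181 had no reads. DESeq2 1.42.0 and limma-voom 3.58.1, other scalings and filters, a replicate block and leaving out each library were alternatives. The same scripts were tested on simulated data. CPM values use TMM-scaled library sizes, and mean log2 CPM a prior count of 2. Standard errors were derived by dividing the log2 fold change, computed without a prior count, by the root of edgeR's F statistic. Intervals are centred on that log2 fold change. Such errors are unstable for estimates near 0, as for Hars (0.17, against 0.26 in the authors' deposited table) and Tars2 (0.61 against 0.49). With 3 libraries per group and a common biological coefficient of variation of 23.6%, the intervals of rare genes are wide. The intervals are of the log2 fold change and take account only of the spread between these libraries.

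Individual values are given for members under an unadjusted p of 0.05 or without overlap of the groups, for the 2 most abundant and the 2 lowest tested members of each compartment, and for members whose genes or libraries bear on a result, the last chosen after values were seen. Of each related list, genes under an unadjusted 0.05 were named, at most 4, or else the 2 most abundant. Members and gene lists were chosen with earlier results of these data known. Gene positions are from GENCODE M21 and promoter windows from RefSeq on GRCm38.p6. A further promoter match is not reported here.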

Additional observations from a re-analysis of the deposited data

How the results depend on the processing

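No synthetase passed an adjusted p of 0.05 under any of the 15 alternatives, and the lowest adjusted p of a member was 0.155, for Wars with no low-count filter. Over all genes, 3 passed in the reported fit, 21 with no low-count filter, 18 in DESeq2 and 7 with a replicate block. Leaving out 1 library gave 1 to 7 genes, with 7 without DMSO replicate 1 and 1 without DMSO replicate 3 or without compound 33 replicate 1. The median log2 fold change of mitochondrial members ranged from -0.087 to 0.248 when 1 library was left out, that of cytosolic members from 0.0711 to 0.18, that of cytosolic class I members from 0.21 to 0.42 and that of class II members from -0.0544 to 0.0805.

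Of the 32 tested members, 19 kept the sign of their log2 fold change in all alternatives and 13 did not, all of them with intervals that include 0. With the library total as scaling, Hars was at -0.00189 and Eif2b2 at -0.00724. In limma-voom, Cars2 was at 0.0875, Tars2 at 0.0907 and Eif2b2 at -0.0246. With the replicate block, Tars2 was at 0.0148 and Eif2b2 at -0.0181. With a mean of at least 10 CPM required, Hsd17b10 was at 0.00215. Leaving out 1 library gave ranges that cross 0 for Eprs (-0.27 to 0.29), Farsb (-0.29 to 0.11), Gars (-0.0486 to 0.13), Hars (-0.0566 to 0.0777), Kars (-0.27 to 0.18), Nars (-0.23 to 0.0908) and Qars (-0.20 to 0.16). The same holds for Cars2 (-0.69 to 0.17), Ears2 (-0.64 to 0.12), Hars2 (-0.38 to 0.0649), Mars2 (-0.11 to 0.52), Tars2 (-0.31 to 0.32) and Wars2 (-0.37 to 0.0454). Among related genes it holds for Hsd17b10 (-0.0739 to 0.0642), Eif2b2 (-0.24 to 0.18), Eef1a1 (-0.015 to 0.57), Tsen34 (-0.69 to 0.24) and Nsun2 (-0.34 to 0.27). The causes were not tested.

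The labels give both groups the same replicate numbers. Deviations from the group means of same-numbered libraries correlated at -0.03, 0.21 and 0.08, and those of other pairs at -0.23 to 0.15. Not every library correlated best with its own number. With 3 libraries per group, these values cannot settle whether same-numbered libraries share more than a number. The replicate block raised the count of all genes to 7 and called 0 members. Rsad2 and Ifit3 passed with the block (adjusted p = 0.0277 and 0.0478 in edgeR), as did Ifit3 when compound 33 replicate 2 was left out (0.00574) and Rsad2 when rare genes were kept (0.00143). Mitochondrial members had both fewer reads and wider errors than cytosolic ones.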
